A study of Mus musculus with 2 samples.

Results

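Histone methylation enzymes and PRDM genes were examined as one group among the RNAs recovered with ELAVL2 from newborn mouse ovary. Members were chosen by symbol in the authors' deposited gene table: genes named Kdm, Kmt2, Setd, Suv, Ehmt, Ezh, Nsd, Whsc1, Prdm with a number, or Dot1l, off chromosome Y and not described as pseudogenes. The table held 34 such genes of 11969 genes paired with a peak. A peak lay inside 31 of them, of 6158 genes overlapped in all, while Kdm4b, Prdm2 and Prdm14 entered the table because they lay closest to peaks outside their bodies.

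One ELAVL2 RIP sample was set against 1 input sample, and both came from ovaries of postnatal day 0, with no genotype or treatment given in the labels. In RNA immunoprecipitation (RIP), an antibody pulls a protein and its bound RNA out of a lysate. Here 100 ovaries were homogenised for the pulldown with 5 ug of antibody, and 5% of the cleared lysate served as input. No pulldown with a control antibody was among the samples, so RNA bound to ELAVL2 and RNA retained in another way cannot be told apart. The lysate came from whole ovaries, in which fewer cells of a type and less RNA per cell cannot be told apart.

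ELAVL2 belongs to the Hu family of RNA-binding proteins, which are known to bind U-rich stretches in transcripts and to alter RNA stability and translation. Histone methylation is set by methyltransferases, most of which carry a SET domain, and removed by demethylases of the LSD and JmjC classes. Methylation of histone H3 at lysine 4 (H3K4) and lysine 36 (H3K36) is a mark of active genes. Methylation of H3K9 and H3K27 and trimethylation of H4K20 mark silent chromatin. PRDM proteins join a SET-related domain to zinc fingers, and several act in germ cells. Oocytes of the newborn ovary have completed the early stages of meiosis and are entering primordial follicles, and their chromatin is rebuilt during later growth.

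Each peak has a pileup, the number of overlapping RIP tags at its summit. Its input level is the local background of scaled input tags that the authors' peak caller used. The lowest level, 0.369, was taken as the genome-wide background. Of 132 peaks inside members, 3 stood at it, among them the peaks with the best fold in Ehmt1 and Kdm4a. The fold enrichment is the ratio of pileup to input level, with a pseudocount of 1 on both, and every peak passed the authors' q cutoff of 0.05. With 1 sample per arm, no value has a replicate check and no test across genes was made. The RIP had 13787676 tags and the input 19479946 once tags with an identical start and strand had been collapsed. Of 13 oocyte markers, 5 held peaks (Ddx4, Dazl, Lhx8, Kit and Sycp3), and Figla, Nobox, Sohlh1, Sohlh2, Gdf9, Zp1, Zp2 and Zp3 held none. Of 19 markers of pregranulosa, stromal, endothelial and blood cells, 2 held peaks (Fshr and Tek). The share of all protein-coding genes with a peak was 24.1%. These counts do not check which cells the tissue held. Peaks show enrichment over input, not expression, so a marker without a peak is not shown to be absent.

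To account for genes without a peak, the same names were looked up among RefSeq genes on GRCm38.p6, which shares its coordinates with mm10. RefSeq held 59 protein-coding members. Nsdhl and Ezhip match the pattern by name and were left out, since neither encodes a histone methylation enzyme or PRDM protein. A peak lay inside 31 of the 59 (52.5%, with a Clopper-Pearson 95% interval of 39.1 to 65.7 for counting error). Of all 21900 protein-coding reference genes, 24.1% held a peak. Fewer of the members were short, with 16 of 59 under 25 kb where 13264 of the 21900 protein-coding genes were, and long genes held peaks more often. Under 25 kb, 5 of 16 members held a peak, where the share of protein-coding genes was 12.3%. From 25 to 50 kb the member count was 7 of 13 against 32.4%, from 50 to 100 kb it was 10 of 18 against 42.7%, and over 100 kb it was 9 of 12 against 56.8%. The member share was the higher of the pair in each length class, and the share of protein-coding genes lay inside the members' 95% interval in each.

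**Figure D1:**
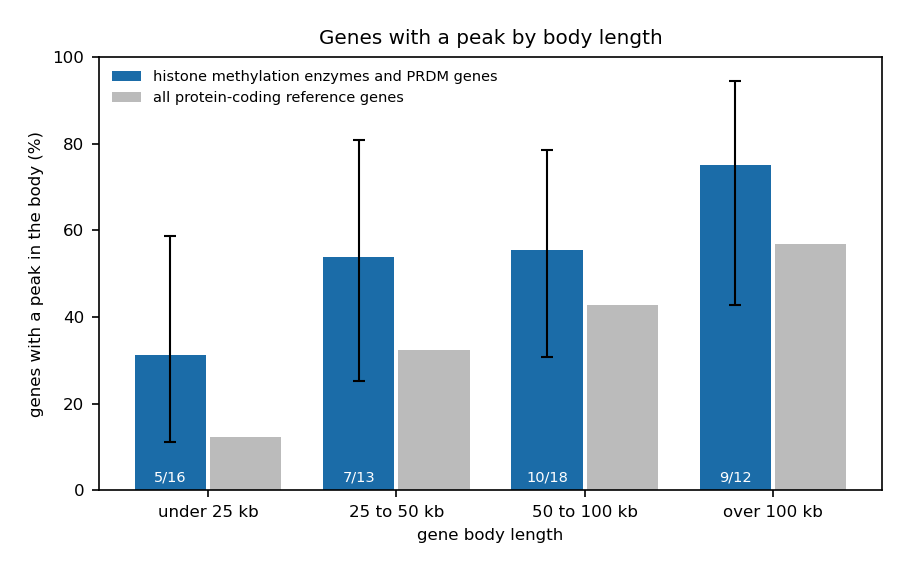
Percentage of genes with a peak inside the body (vertical axis) by body length (horizontal axis), for the 59 members (blue, with numbers of genes and exact binomial 95% intervals) and for all protein-coding reference genes (grey). Blue bars stand above grey bars in the 4 classes, and the interval of each blue bar reaches below its grey neighbour.

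The 31 genes held 132 peaks, from 1 to 14 per gene with a median of 3, against a median of 2 over all overlapped genes. Exactly 1 peak lay in 13 of them (41.9%, against 35.3% of all overlapped genes). Another 10 genes (32.3%, against 27.7% of all overlapped genes) held 5 or more, and together 92 of the 132 peaks. They were Prdm16, Kmt2c, Kdm1b, Suv39h2, Whsc1l1, Ehmt1, Kdm7a, Prdm6, Setd1b and Setdb2. The fold enrichment of single peaks ran from 1.82 to 7.45 with a median of 3.51, against 3.26 over all peaks in genes. The best fold per gene had a median of 4.14, against 4.38 over all overlapped genes. At the level of fold and peak number, the members therefore lay near the middle of the overlapped genes. None of 60 promoter windows known for 44 of the members (300 bases each, around a start) held a peak. Windows of other genes were not counted, so this is not shown to be particular to the members. Over all peaks inside exactly 1 gene, 4.68% of summits lay in the first 10% of the body.

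**Figure D2:**
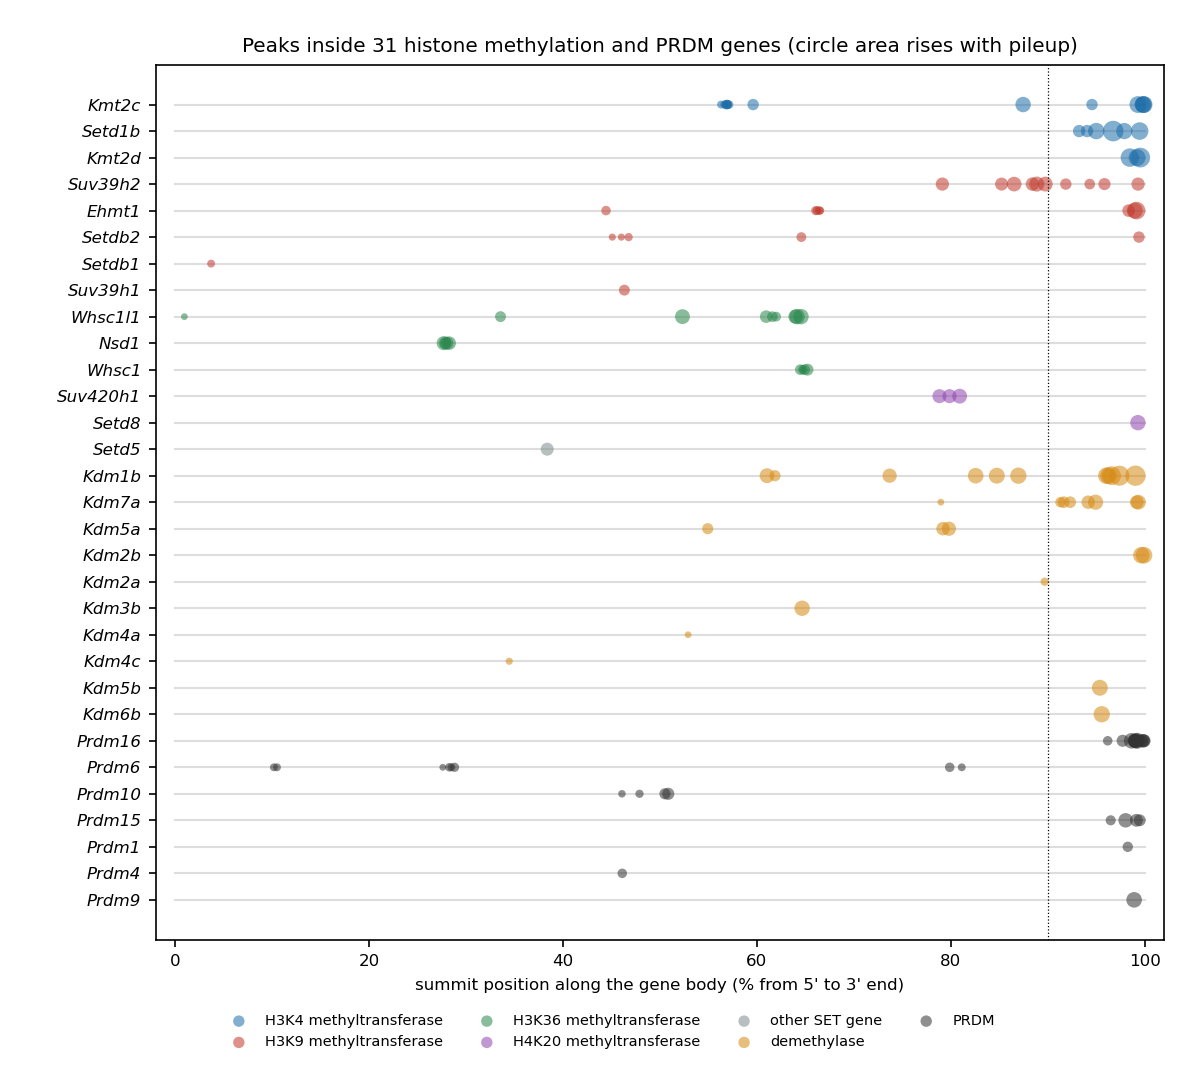
Position of each peak's summit along the gene body, in percent from the 5' to the 3' end (horizontal axis), for the 31 genes with a peak (rows), coloured by role, with circle area rising with pileup. The dotted line marks the start of the last 10% of the body, where 59 of 132 summits lie. Prdm16, Setd1b, Kmt2d and Prdm15 have all their peaks there, and Nsd1, Whsc1, Whsc1l1, Prdm6 and Prdm10 have none.

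Among H3K4 methyltransferases, peaks lay inside 3 of 8 genes (37.5%, exact interval 8.52 to 75.5), against 24.1% of all protein-coding genes. Gene length was not matched in this or the other counts by role. Kmt2c and Kmt2d encode the large MLL3 and MLL4 enzymes known for methylating enhancers, and Setd1b encodes a catalytic subunit of a SET1 complex that methylates promoters. Kmt2c held 13 peaks spread over 99.2 kb. Of these, 4 lay within 1.58 kb of the 3' end with pileups of 42 to 48 over input levels of 13.4 to 25.5 and folds of 1.85 to 3.32. Single peaks of pileup 20 and 39 lay 12.3 and 28.5 kb before the end. A second group of 6 peaks spanned 1926 bp near the middle of the body (chromosome 5, 25369113 to 25371038, mm10), with pileups of 8 to 14 over input levels of 0.556 to 2.12 and folds of 3.20 to 6.31. The peak with the largest fold in Kmt2c, 6.72, stood between them at 25363444 to 25363499, where a pileup of 20 met an input level of 2.12. The middle group also lay inside Gm42585 on the opposite strand, so its gene is uncertain, while the 3' group lay inside Kmt2c alone.

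Setd1b and Kmt2d showed the 3' end pattern without a middle group. In Setd1b, 6 peaks lay within 1.79 kb of the 3' end (chromosome 5, 123166836 to 123168581), with pileups of 24 to 72 over input levels of 9.20 to 24.1. The pileup of 72 was the highest of any member peak, at a fold of 2.91. Its -log10 q was 10.4. All 6 peaks also lay inside Gm26745 on the opposite strand. In Kmt2d, 3 peaks lay within 642 bp at the 3' end (chromosome 15, 98831830 to 98832471), with pileups of 48, 57 and 66 and folds of 1.85, 2.25 and 2.13. Both genes thus combined high pileups with high input levels, and their folds were modest. Keeping 1 tag per position and strand, extended to 50 bp, caps the pileup. The highest pileup over all peaks in genes was 97, so folds at high input levels were capped too. The part of this cap in the folds was not tested. The other H3K4 genes, Kmt2a, Kmt2b, Kmt2e, Setd1a and Setd7, held no peak.

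Among H3K9 methyltransferases, peaks lay inside 5 of 6 genes (83.3%, exact interval 35.9 to 99.6), against 24.1% of all protein-coding genes, with length not matched. Suv39h2, which encodes a trimethylating enzyme of constitutive heterochromatin known from germ cells, held 10 peaks within 4.01 kb of its 3' end (chromosome 2, from 3455903 to 3459835). Their pileups ran from 17 to 37, their input levels from 2.72 to 16.3 and their folds from 2.14 to 5.09, and the largest -log10 q was 8.60. Dclre1c, a DNA repair nuclease gene, lies on the opposite strand, and its body covered the same 10 peaks in both annotations. The peak calls carry no strand, so these peaks cannot be given to either gene. Suv39h1, the X-linked relative of Suv39h2, held 1 peak of pileup 18 over an input level of 3.54 (fold 4.19), also inside the antisense gene Gm14820.

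Ehmt1 encodes GLP, which works as a pair with G9a, the product of Ehmt2, in H3K9 mono- and dimethylation. Ehmt1 held 8 peaks in 3 groups and Ehmt2 held none, the nearest peak being 68.2 kb away. At the 3' end of Ehmt1, 3 peaks had pileups of 25 to 52 and folds of 2.22 to 2.67. Some 43 to 44 kb before the end, 4 peaks within 670 bp (chromosome 2, 24833306 to 24833975) had pileups of 8 to 12 and folds of 3.52 to 6.58. The remaining peak, 72.1 kb before the end, had a pileup of 13 and a fold of 5.80. Setdb1, which silences endogenous retroviruses, held a single peak in the first 4% of its body (pileup 8, input level 0.708, fold 5.27). Its relative Setdb2 held 5 peaks with pileups of 6 to 20 and a best fold of 4.91. Neither Setdb1 nor Setdb2 had a peak with a pileup above 20.

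The H3K36 methyltransferases of the NSD family each held peaks, and none of their 17 peaks lay in the last 10% of a body. NSD1 and its relatives dimethylate H3K36. Nsd1 held 4 peaks within 712 bp (chromosome 13, 55239807 to 55240518), 78 kb before the 3' end. Their pileups were 32, 23, 27 and 29 over input levels of 4.95, 5.20, 6.23 and 9.20, which gave folds of 5.54, 3.87, 3.87 and 2.94. The first of them had a -log10 q of 11.2, a value reached by 8.83% of overlapped genes. Whsc1 (now Nsd2) held 4 peaks within 847 bp (chromosome 5, 33870367 to 33871213), 27 kb before the 3' end. Their pileups were 17, 12, 17 and 22 over input levels of 1.42, 1.70, 2.83 and 2.12, and their folds of 7.45, 4.82, 4.70 and 7.36 include the largest of any member.

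Whsc1l1 (now Nsd3) held 9 peaks scattered from 0.9% to 64.5% of its body. Of these, 6 fell in 2 groups between 61.0% and 64.5% of the body, with pileups of 14 to 39 and folds of 2.06 to 4.14. Further upstream, a peak of pileup 36 and fold 3.63 had a -log10 q of 7.27, the best in the gene. Another peak lay 483 bp upstream of the gene in no gene body (pileup 6, fold 4.10). The 3 NSD genes shared clustered peaks well inside the gene, which other members such as Ehmt1, Prdm10 and Setdb2 held too. No peak of the NSD genes also lay in another gene. Over all genes, 16.6% of pairs of a gene and a peak had a peak that did. Exon and isoform ends were not used here, so whether these groups lie in exons, introns or at internal 3' ends was not tested. Setd2, which trimethylates H3K36, held no peak, and the nearest was 123 kb away. Peaks thus lay inside 3 of 4 H3K36 genes (75%, exact interval 19.4 to 99.4), against 24.1% of all protein-coding genes, with length not matched.

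The polycomb methyltransferase genes Ezh1 and Ezh2, which act on H3K27, held no peak, and neither did Dot1l, the H3K79 enzyme gene. Of the H4K20 enzyme genes, Setd8 (now Kmt5a, monomethylation) held 1 weak peak of pileup 39 over an input level of 20.5 at its 3' end (fold 1.86, -log10 q 1.33). This was the member nearest to the q cutoff by its best peak, and it fell away at a q of 0.01. Suv420h1 (now Kmt5b) held 3 peaks 9.7 to 10.8 kb before its 3' end, with pileups of 32 to 36 and folds of 2.28 to 2.69, inside the antisense gene Gm16066 as well. The reference body of Gm16066 did not hold these peaks. Suv420h2 (now Kmt5c) held none. Of the remaining SET genes, Setd5 held 1 peak of pileup 27 over an input level of 7.79 (fold 3.19), and Setd3, Setd4 and Setd6 held none.

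Among demethylases, peaks lay inside 10 of 17 genes (58.8%, exact interval 32.9 to 81.6), against 24.1% of all protein-coding genes, with length not matched. Kdm1b, a flavin-dependent H3K4 demethylase known to be needed in oocytes for maternal imprints, held 11 peaks, a number reached by 6.37% of overlapped genes. They formed a string through the last 40% of the body. The 5 peaks nearest the 3' end (chromosome 13, 47082947 to 47084503) had pileups of 45 to 70 over input levels of 21.9 to 37.5 and folds of 1.83 to 2.47. Further from the end, pileups lay between 19 and 44 and the best fold was 3.92. The median input level over the 11 peaks was 21.9, against 6.37 over all member peaks. Kdm1a, the widely expressed relative, held no peak, and the nearest was 368 kb away.

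Kdm7a, a JmjC demethylase of H3K9 and H3K27, held 8 peaks, of which 7 lay within 6.09 kb of its 3' end. These 7 had pileups of 16 to 38 over input levels of 2.83 to 12.7 and folds of 2.69 to 4.67. All 7 also lay inside 4930599N23Rik on the opposite strand, in both annotations. The eighth, inside Kdm7a alone, had a pileup of 5 and a fold of 3.51. Kdm6b, an H3K27 demethylase of developmental genes, held 1 peak, 0.671 kb from its 3' end (chromosome 11, 69399031 to 69399205). Its pileup was 44 over an input level of 9.48 (fold 4.29), and its -log10 q was 11.3. It stood out among the genes with 1 peak, since the best -log10 q of the other 12 was 4.75 or less. Kdm6a, its X-linked relative, held none, but a weak peak lay 359 bp past its end (pileup 9, fold 3.20, -log10 q 1.39).

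The H3K4 demethylase gene Kdm5a held 3 peaks (best fold 3.36, pileups 19 to 33), and Kdm5b held 1 at its 3' end (pileup 42, fold 2.22). The H3K36 demethylase gene Kdm2b held 2 peaks within 0.402 kb of its 3' end, with pileups of 46 and 45 and folds of 2.61 and 1.84. Rnf34 on the opposite strand overlapped both in the authors' deposited table and not in the reference. Kdm2a, Kdm4a and Kdm4c each held 1 peak with a pileup of 5 to 9 over input levels of 0.369 to 1.42 (folds 4.14, 4.38 and 4.10). Kdm3b held 1 peak of pileup 39 over an input level of 18.4 (fold 2.06). Folds of these single peaks were higher where the pileup and the input level were low, so a higher fold here did not go with more RIP tags. This order is partly built in, since the input level is the divisor of the fold. A peak of few tags also needs a high fold to pass the q cutoff. Kdm4b was paired with 4 peaks upstream of it, which lay inside Uhrf1, a reader of H3K9 methylation (best fold 2.79 at a pileup of 65). Kdm3a, Kdm4d, Kdm5c and Kdm8 held none.

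Among PRDM genes, peaks lay inside 7 of 14 (50%, exact interval 23.0 to 77.0), against 24.1% of all protein-coding genes, with length not matched. Prdm16, a zinc finger regulator of blood stem cells and brown fat, held 14 peaks, the most of any member. All 14 lay in the last 4% of its 321 kb body, and 12 fell in groups of 4 and 8 less than 5 kb from where it ends (chromosome 4, 154316180 to 154320568). The group of 4 nearest the end had pileups of 21 to 29 over input levels of 3.15 to 7.79 and folds of 3.41 to 5.52. In the group of 8, pileups ran from 22 to 42, input levels from 6.37 to 17.7 and folds from 2.30 to 5.56. The largest -log10 q of any member, 13.9, was at 154320386 to 154320568, with a pileup of 40 over an input level of 6.37. Of overlapped genes, 3.52% had a -log10 q as large. No other gene overlapped these peaks.

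Prdm15, a regulator of pluripotent cells, had the same arrangement on a smaller scale, with 4 peaks within 2.11 kb of its 3' end, pileups of 15 to 34 and a best fold of 4.33. The other 2 peaks paired with Prdm15 lay inside its neighbour C2cd2. Prdm6, a repressor known from smooth muscle, differed: its 8 peaks ran from 10.2% to 81.1% of the body with pileups of 5 to 13 over input levels of 0.369 to 2.83, and folds of 3.65 to 6.51. A further 4 peaks lay 5706 to 12533 bp upstream of Prdm6 in no gene. The strongest had a pileup of 18 and a fold of 7.98, and its -log10 q was 10.3. Prdm10 held 4 peaks near the middle of its body, with pileups of 7 to 23 and folds of 3.81 to 4.68, and Prdm4 held 1 (pileup 13, fold 3.65).

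The 3 PRDM genes best known from germ cells held at most 1 peak each. Exactly 1 peak lay in 35.3% of all overlapped genes, and 24.1% of all protein-coding genes held a peak. Prdm9 encodes the meiotic methyltransferase that marks recombination hotspots. It held 1 peak of 440 bp at its 3' end (chromosome 17, 15543094 to 15543533), a length matched among member peaks by 1 in Kdm1b and exceeded by none. Its pileup was 40 over an input level of 14.2 (fold 2.71), and its -log10 q was 4.75. Prdm1, which encodes BLIMP1 and specifies primordial germ cells, held 1 peak 1.59 kb from its 3' end, with a pileup of 16 over an input level of 4.25 (fold 3.24). Prdm14, which acts with Prdm1 in primordial germ cells, held none. Past its end, at 2588 to 5202 bp, 3 peaks of pileup 8 lay in no gene (folds 5.27 to 6.58), and another paired peak lay inside Ncoa2. Prdm2, Prdm8, Prdm11, Prdm12 and Prdm13 held no peak, and Prdm2 was paired with 1 peak 5192 bp upstream (fold 1.87).

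**Figure D3:**
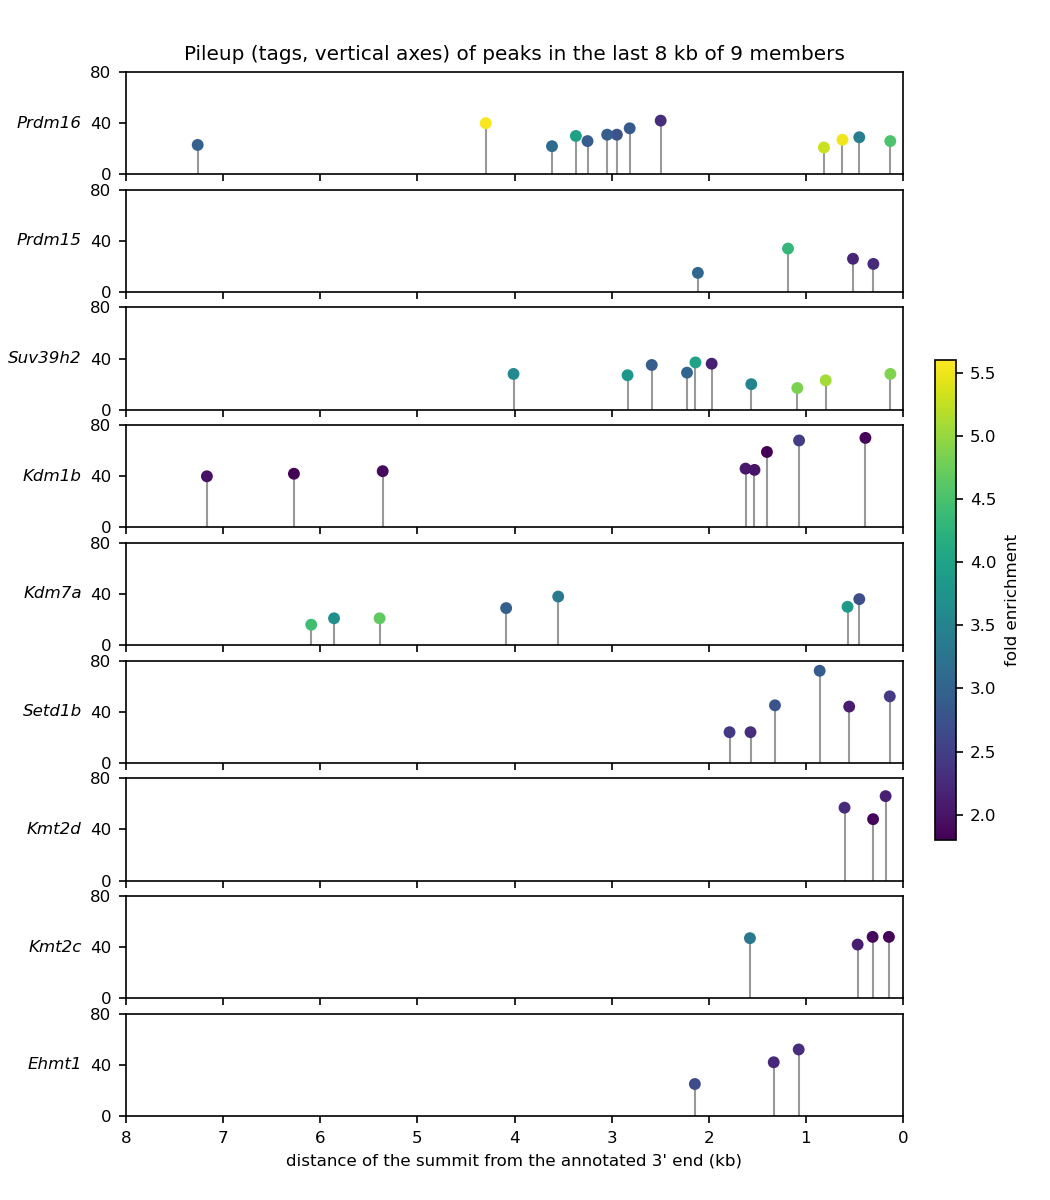
Pileup at the summit (vertical axes, RIP tags) against distance from the annotated 3' end (horizontal axis, kb) for peaks in the last 8 kb of 9 members, coloured by fold enrichment. Kdm1b, Setd1b and Kmt2d reach pileups of 66 to 72 at folds below 3, while the peaks of Prdm16 and Suv39h2 stay at or below 42 and reach folds of 5.56 and 5.09. The peaks shown for Suv39h2, Setd1b and Kdm7a also lie in a gene on the opposite strand.

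Over the group, 59 of 132 summits (44.7%, exact interval 36.0 to 53.6, which treats peaks of a gene as separate) lay in the last 10% of the body and 2 in the first 10%. Among peaks inside exactly 1 gene, the share in the last 10% was 41.2% (40 of 97) for members and 46.6% for all genes, and the members' interval of 31.3 to 51.7 held the value of all genes. In a fixed window of 5 kb at the 3' end the share was 38.1% (37 of 97) for members and 53.6% for all genes, which lay above the members' interval of 28.5 to 48.6. That interval also treats peaks of a gene as separate, and 12 of the 37 lay in Prdm16. Over all 132 member peaks the share within 5 kb was 44.7% (exact interval 36.0 to 53.6). Member bodies had a median length of 70.2 kb and all overlapped bodies 38.7 kb, and the part of length in the 5 kb shares was not tested. The input level moved with position. Member peaks in the last 10% had a median pileup of 34, a median input level of 9.91 and a median fold of 2.84, and those elsewhere had 17, 2.83 and 3.90. Peaks of all genes showed the same order, with a median fold of 2.84 in the last 10% and 3.82 elsewhere. No member peak in the last 10% had an input level below 2.72, and the part of the input level in the fold was not tested.

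**Figure D4:**
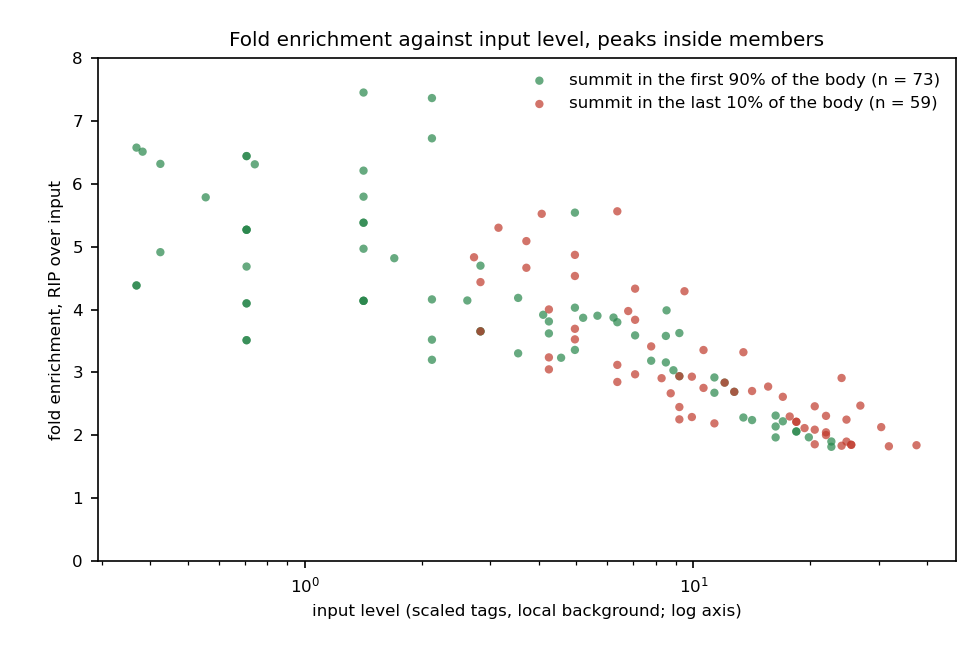
Fold enrichment (vertical axis) against input level (horizontal axis, log scale, scaled tags) for the 132 peaks inside members, with summits in the last 10% of the body in red and the others in green. Folds fall as the input level, which is their divisor, rises, and peaks with an input level below 2.72 lie outside the last 10%.

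Of the 132 pairs of a member and a peak, 35 (26.5%) had a peak that overlapped a second gene, against 16.6% of the 23221 such pairs over all genes. These 35 came from 7 genes, with 10 in Suv39h2, 7 in Kdm7a, 6 each in Kmt2c and Setd1b and the rest in Suv420h1, Kdm2b and Suv39h1, and the second gene was on the opposite strand in each. With peaks inside exactly 1 gene, 26 of the 31 genes kept a peak (83.9%, against 84.5% of all overlapped genes), and Suv39h2, Suv39h1, Setd1b, Suv420h1 and Kdm2b did not. At a pileup of at least 20, 23 of the 31 kept one (74.2%, against 70.6% of all overlapped genes). Kdm2a, Kdm4a, Kdm4c, Prdm1, Prdm4, Prdm6, Setdb1 and Suv39h1 had no such peak, and the best fold of Ehmt1 went from 6.58 to 2.67 and that of Setdb2 from 4.91 to 2.85. With peaks paired with exactly 1 gene, 6 of the 31 were left (19.4%, exact interval 7.45 to 37.5), where 41.3% of all overlapped genes were left.

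Genes of the same complexes, readers of the marks and other methylation enzymes were counted from lists, and peaks lay inside 31 of 68 of them. In reference bodies the count was 28 of 68 (41.2%, exact interval 29.4 to 53.8), where 24.1% of protein-coding genes held a peak, with gene length not matched. For 6 of the 7 lists the 95% interval of the reference count held that share, and for PRC2 partners it began at 29.9%. Of 9 partners of the polycomb complex PRC2, 6 held peaks although the catalytic genes Ezh1 and Ezh2 held none. They were Jarid2, which guides the complex to chromatin (11 peaks, best fold 5.70, -log10 q 13.3), Aebp2 (7, 4.37), Rbbp4 (5, 2.56), Mtf2 (2, 3.71), Phf1 (2, 3.03) and the core subunit gene Suz12 (1, 1.77). Of 17 genes of PRC1, the complex that ubiquitinates histone H2A, 6 held peaks. Rnf2, a catalytic subunit gene, held 11 (best fold 6.48, -log10 q 13.6), Pcgf3 10 (3.65) and Bmi1 9 (4.80), and Pcgf6 held 1. Pcgf5 held 3 in the authors' deposited table and 9 in its reference body. Of 10 COMPASS partners of the H3K4 enzymes, 5 held 1 or 2 peaks each, with best folds between 2.49 and 3.11.

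Of 7 genes of H3K9 readers and cofactors, 5 held peaks, and the peak of 1 of them, Atf7ip, lay outside its reference body. The heterochromatin protein genes Cbx1, Cbx3 and Cbx5 had best folds of 2.40, 2.00 and 3.37, with a pileup of up to 84 in Cbx3. Of 8 further lysine methyltransferase genes, 4 held peaks, led by Smyd5 (5 peaks, best fold 8.52 at a pileup of 16) and Smyd3 (4, 6.58 at a pileup of 8). The Smyd1 body in the authors' deposited table held 3 peaks, and its reference body held none. Of 8 further JmjC genes 3 held peaks, among them Phf8, an X-linked H3K9 and H4K20 demethylase gene (10 peaks, best fold 6.44, pileups up to 61). Of 9 arginine methyltransferase genes 2 held peaks, Prmt3 (best fold 4.53) and Prmt7 (2.41), and the Prmt7 peak lay outside its reference body.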

How the data were processed

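The submitters' processing notes name MACS2 2.1.0.20140616, TopHat2 2.0.8b, CASAVA 1.8.2 and FastQC 0.11.2, and the build mm10. Peaks were called on 3 pooled lanes of RIP and 3 of input at a q cutoff of 0.05, per the file headers. There was no shift model, tags of 36 bases were extended to 50 bp, and duplicates at a position were reduced to 1 tag. The caller takes no account of splicing or strand. The deposited signal is a pileup of RIP tags. Per the file headers, fold enrichment is a ratio of pileup to local background. The authors also gave a -log10 p and q per peak, which only describe peaks here. The sources used here do not give how the gene table was made.

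Exact repeats were dropped from 85730 rows, leaving 43554. The input level was recomputed from pileup and fold. Peaks were placed along gene bodies in the table and, with at least 1 bp of overlap, in GRCm38.p6. Older symbols were matched for Setd8, Suv420h1, Suv420h2, Whsc1 and Whsc1l1. Overlap and position routines were tested on simulated data. The software was matplotlib 3.10.9, scipy 1.17.1, pandas 2.3.3 and numpy 2.4.6 under Python 3.11.15. Intervals are exact Clopper-Pearson.

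The members and lists were chosen with earlier results of these data known. Members were ordered by role. Named in each role were the 3 with most peaks and the 3 with the largest best fold, with Prdm1, Prdm9, Prdm14, Setdb1, Ehmt1, Ehmt2, Ezh1, Ezh2, Dot1l, Kdm1a, Kmt2b, Kmt2d and Setd2 in any case. The remaining members were added to account for the group, except that some genes are counted in the totals and not reported by name here. Alternatives were stricter q, fold and pileup limits, peaks in or paired with 1 gene, merged peaks, reference bodies, a fold without pseudocount and another window at the 3' end. The planned search for U-rich words under peaks was left out because no genome sequence was used here.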

Additional observations from a re-analysis of the deposited data

How the results depend on the processing

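No paired analysis was possible because each arm has 1 sample, and leaving out replicates was not possible for the same reason. The number of members with a peak stayed between 23 and 34 under the q, pileup, fold, reference body, nearest gene and single overlap settings, against 31 as deposited, and was 6 with peaks paired with exactly 1 gene. The 132 peaks became 84 at a q of 0.001, 85 at a pileup of 20, 70 when peaks within 500 bp were merged and 19 with peaks paired with exactly 1 gene. The median best fold, 4.14 as deposited, was 4.17 at a q of 0.01, 4.29 at a q of 0.001, 3.16 at a pileup of 20, 4.14 for peaks in exactly 1 gene, 4.17 for peaks paired with exactly 1 gene and 5.09 without the pseudocount. The share in the last 10% of the body, 44.7%, was 63.5% at a pileup of 20 (55.1% over all genes) and 0% with peaks paired with exactly 1 gene (28.0% over all genes). The 31 listed genes of the same complexes, readers and other enzymes with a peak became 13 with peaks paired with exactly 1 gene, and 27 to 29 under the q, pileup and single overlap settings. These alternatives for the listed genes were chosen after seeing the data. Depth limits what a missing peak means: after duplicate removal 7.98% of RIP tags and 9.26% of input tags were left, so a gene without a peak was not detected as enriched at this depth.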
